A study of Homo sapiens with 4 samples.

Results

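Distal AP-1 peaks are peaks called for the chromatin remodeling ATPase BRG1. They lie more than 1 kb from every annotated transcript start and carry an AP-1 binding site at their centre. Many of them score below the minimum of 5 that the study's methods name. A peak was a member when the bases within 100 bp of its midpoint held an exact copy of the 7-bp AP-1 element TGACTCA, which reads TGAGTCA on the opposite strand. By this rule 1848 of 24212 peaks of wild-type BRG1 and 1307 of 25371 peaks of BRG1 without its HSA domain were members, 3155 of 49583 peaks in all. The rule used position and sequence, and neither the score of a peak nor its presence in the other list.

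The peaks came from CUT&RUN, which releases and sequences the DNA next to an antibody-bound protein, with an antibody against the V5 tag in SW-13 cells. SW-13 is an adrenocortical carcinoma line that lacks both SWI/SNF ATPases, BRG1 and BRM, so the tagged protein from a doxycycline-inducible transgene was the only BRG1 present. The lines compared expressed V5-tagged wild-type BRG1 (iBRG1) or a V5-tagged BRG1 that lacks the helicase/SANT-associated domain (i∆HSA), the part that binds actin and actin-related proteins, and both were induced for 24 h. Each line was an individual clone, each construct had 2 samples, and each construct had 1 deposited peak list without values per replicate, so the spread between replicates is unknown and a difference between the lists cannot be told apart from a difference between clones. Read depth is unknown, since the lists carry a score for each peak and no counts. Intervals below are therefore 95% Wilson intervals for shares and 95% Newcombe intervals for differences, and they cover the counting of peaks only, because peaks of 1 list are not replicates of a condition.

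AP-1 is a dimer of FOS and JUN family proteins, basic leucine zipper factors that respond to growth factor, stress and cytokine signals. The element searched here is also called the TPA response element (TRE), and it is a frequent motif in enhancers, many of which lie in introns or between genes. SWI/SNF complexes use ATP to move or evict nucleosomes, and AP-1 proteins are known to recruit them to enhancers in several cell types. TEAD factors, the DNA-binding partners of YAP and TAZ, often occupy the same enhancers as AP-1.

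The sites at the centre of the strongest members are shown first. The comparisons turn on whether such a site lies in a peak of 1 list or of both. All were read from GRCh37 (hg19), 5′ to 3′ on the strand that gives TGACTCA, which is in capitals. The first group holds sites of members that overlapped a peak of the other list and were among the highest-scoring of either list:
PFKP intron, chr10:3137778-3137818, minus strand: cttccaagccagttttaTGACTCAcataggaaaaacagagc
DYM intron, chr18:46848317-46848357, minus strand: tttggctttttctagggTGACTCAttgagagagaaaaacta
MAGI3 intron, chr1:113999752-113999792, minus strand: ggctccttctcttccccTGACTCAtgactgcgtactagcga
ACACA intron, chr17:35537027-35537067, plus strand: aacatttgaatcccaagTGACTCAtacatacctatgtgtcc
TNRC6A intron, chr16:24657629-24657669, plus strand: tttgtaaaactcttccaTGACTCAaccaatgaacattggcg
OSER1 intron, chr20:42833017-42833057, plus strand: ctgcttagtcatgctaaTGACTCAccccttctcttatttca
MMP20 intron, chr11:102470494-102470534, minus strand: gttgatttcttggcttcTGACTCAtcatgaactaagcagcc

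The second group holds sites of the highest-scoring members found only in the iBRG1 list:
HOATZ intron, chr11:111402002-111402042, plus strand: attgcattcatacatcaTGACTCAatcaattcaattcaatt
PIK3CA intron, chr3:178899095-178899135, plus strand: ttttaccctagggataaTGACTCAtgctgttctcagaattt
PPP1R12B intron, chr1:202429418-202429458, minus strand: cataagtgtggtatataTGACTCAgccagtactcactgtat

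The third group holds sites of the highest-scoring members found only in the i∆HSA list:
SMOX intron, chr20:4116385-4116425, plus strand: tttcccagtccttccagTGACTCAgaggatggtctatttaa
CBL intron, chr11:119089429-119089469, minus strand: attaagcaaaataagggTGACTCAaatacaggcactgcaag
MAP2 intron, chr2:210503221-210503261, plus strand: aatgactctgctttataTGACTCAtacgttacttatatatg
ABL1 intron, chr9:133653292-133653332, plus strand: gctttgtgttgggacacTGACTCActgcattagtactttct

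Peaks of both constructs held a central AP-1 site more often than the DNA beside them, and iBRG1 peaks held one more often than i∆HSA peaks. In the iBRG1 list 9.51% of 19423 distal peaks were members (95% interval 9.11 to 9.94%), against 2.94% of windows of the same length 2 kb to either side, a ratio of 3.23. In the i∆HSA list 6.58% of 19876 distal peaks were members (6.24 to 6.93%), against 3.10% of their flanking windows, a ratio of 2.12. The flanking shares were near the share in all 13065173 windows of this length that tile the genome more than 1 kb from a start, 3.07%. The iBRG1 share was higher than the i∆HSA share by 2.94 percentage points (2.40 to 3.48).

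The difference between the lists lay in the peaks that each construct had alone. Peaks with 1 bp or more in common with a peak of the other construct were counted as shared. Of all peaks, 20.5% of the iBRG1 list and 19.6% of the i∆HSA list were shared, and of all distal peaks 18.1% and 17.7%. Among shared distal peaks the AP-1 share was 14.2% in the iBRG1 list (501 of 3519) and 14.8% in the i∆HSA list (523 of 3524), values that rest on largely the same regions. Among iBRG1-only distal peaks it was 8.47% (1347 of 15904, interval 8.05 to 8.91%), 2.88 times their flanking share. Among i∆HSA-only distal peaks it was 4.79% (784 of 16352, interval 4.48 to 5.13%), 1.52 times their flanking share. The list-only shares differed by 3.68 points (3.13 to 4.22), and the shared share exceeded the list-only share by 5.77 points in the iBRG1 list (4.57 to 7.03) and by 10.0 points in the i∆HSA list (8.86 to 11.3).

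AP-1 sites were densest near peak midpoints and thinned out with distance, as the plot of sites by distance shows. Within 100 bp of the midpoint, shared peaks held 43.8 sites per 1000 peaks and 50 bp in the iBRG1 list and 45.6 in the i∆HSA list. Beyond 800 bp from the midpoint the values were 14.5 and 13.1. Around iBRG1-only peaks they went from 22.8 in the centre to 10.2 beyond 800 bp, and around i∆HSA-only peaks from 13.1 to 8.39. The median width of distal peaks was 1216 bp in the iBRG1 list and 1192 bp in the i∆HSA list. Positions beyond 800 bp thus lay outside most distal peaks. The centre stood out least in the i∆HSA-only peaks, by 1.56 times, and most in the shared peaks of that list, by 3.48 times.

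**Figure D1:**
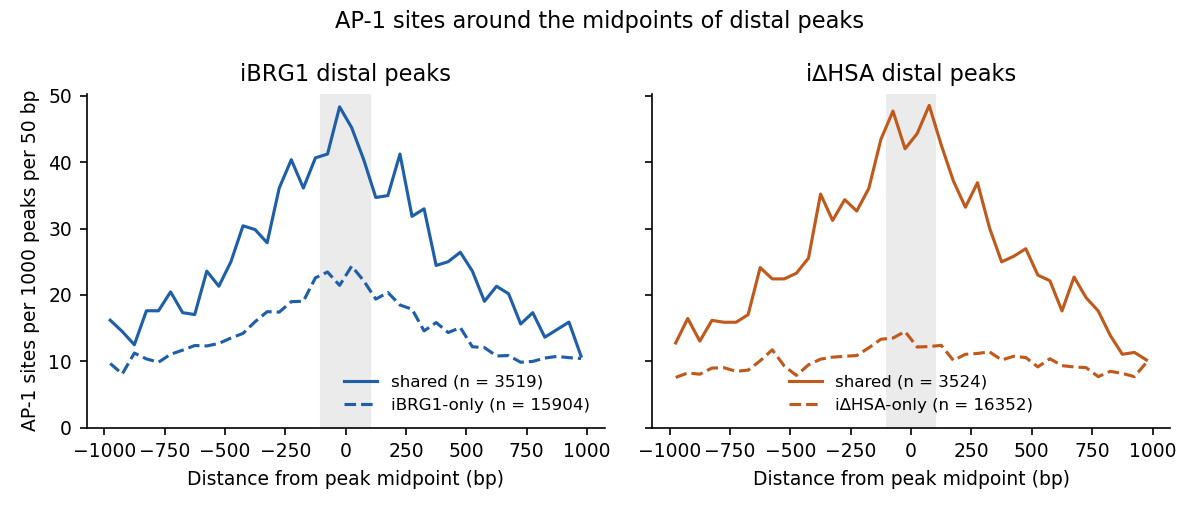
AP-1 sites per 1000 distal peaks in 50-bp bins (y axis) by distance from the peak midpoint in bp (x axis), for shared peaks (solid lines) and list-only peaks (dashed lines) of the iBRG1 list (left) and the i∆HSA list (right); the grey band is the central window of the rule. Shared peaks reach 43.8 and 45.6 within 100 bp of the midpoint, iBRG1-only peaks 22.8 and i∆HSA-only peaks 13.1.

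The same order held over whole peaks. A TRE lay anywhere in the peak in 65.1% of shared distal peaks of the iBRG1 list and 65.0% of those of the i∆HSA list, in 36.1% of iBRG1-only peaks (35.3 to 36.8%) and in 22.96% of i∆HSA-only peaks (22.3 to 23.6%). Per kb of peak there were 0.563 and 0.560 sites in shared peaks, 0.372 in iBRG1-only peaks and 0.231 in i∆HSA-only peaks, which is the same order.

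Members were shared between the constructs more often than other distal peaks were. In the iBRG1 list 501 of 1848 members were shared, 27.1% (25.1 to 29.2%), against 17.2% of 17575 other distal peaks, a difference of 9.94 points (7.88 to 12.1). In the i∆HSA list 523 of 1307 members were shared, 40.02% (37.4 to 42.7%), against 16.2% of 18569 other distal peaks, a difference of 23.9 points (21.2 to 26.6). Read against the 18.1% and 17.7% of all distal peaks, members were above the background in both lists. Shared peaks are largely the same regions in both lists. The larger i∆HSA excess therefore goes with its fewer list-only members, 784 against 1347 in the iBRG1 list, and is not a separate finding.

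Members also had higher scores within their list. The score is a whole number given by the authors' processing, its scale is not stated, and values are compared only within a list. The median of iBRG1 members was 3 (quartiles 2 and 8, highest 100), against 2 for other distal peaks (1 and 4). The median of i∆HSA members was 5 (3 and 11, highest 306), against 4 (2 and 6). A score of at least 5 was reached by 40.9% of iBRG1 members, 16.8 points more than other distal peaks (14.5 to 19.1), and by 52.1% of i∆HSA members, 14.8 points more (12.0 to 17.5).

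Because sharing and score moved together, sharing was compared within 7 score classes, each on its own list's scale. The excess of members again differed between the lists. In the iBRG1 list members exceeded other distal peaks of like score by few points. The difference was 3.499 points at a score of 2 (0.0556 to 7.75), 3.96 at scores 3 to 4 (0.159 to 8.27) and 5.08 at 5 to 9 (0.189 to 10.3), where 33.1% of members and 27.99% of others were shared. At 10 to 19 the shares were 48.2% and 50.9%, a difference of -2.65 points (-9.34 to 4.09), and at 20 to 49 they were 77.0% and 72.9%, a difference of 4.11 points (-5.29 to 12.1). In the i∆HSA list members were shared more often in each of the 7 classes, with the interval of the difference above 0 in all but the lowest class of 30 members. The shares were 43.1% against 20.7% at scores 5 to 9, 63.0% against 37.9% at 10 to 19, 74.5% against 49.4% at 20 to 49, and 96.7% (59 of 61 members) against 57.8% at 50 or more. When other distal peaks were weighted to the score classes of the members, the difference in sharing was 2.90 points in the iBRG1 list and 18.6 points in the i∆HSA list. Among the 5000 highest-scoring peaks of each list it was 1.55 points (-2.25 to 5.55) and 24.8 points (19.7 to 29.7), so the iBRG1 difference was not detectable there.

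**Figure D2:**
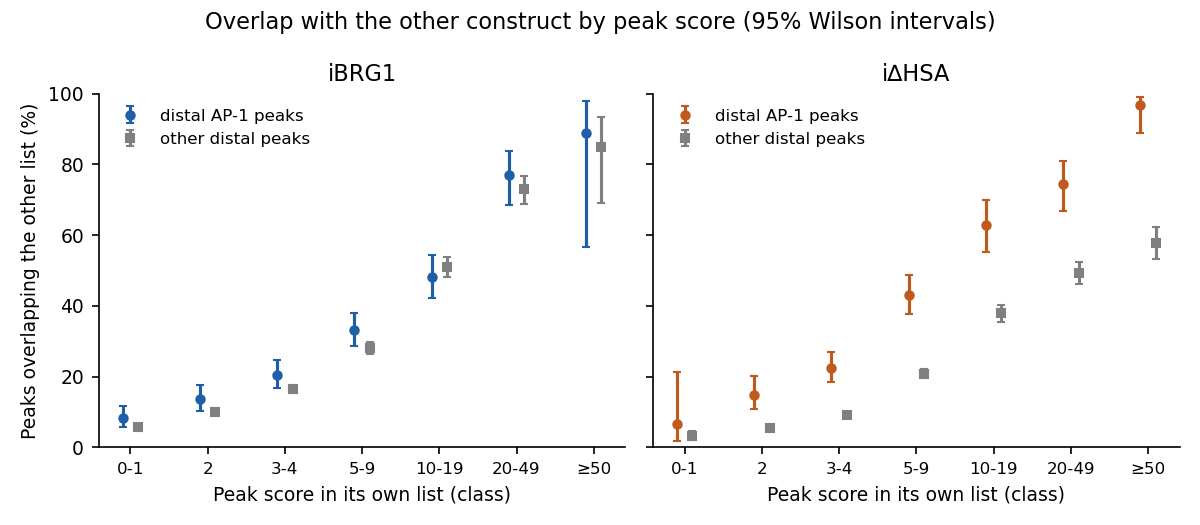
Share of peaks that overlapped a peak of the other list in % (y axis) by class of peak score (x axis), for distal AP-1 peaks (coloured circles) and other distal peaks (grey squares) of the iBRG1 list (left) and the i∆HSA list (right), with 95% Wilson intervals. Members and others lie within a few points of each other in the iBRG1 classes, as at scores 10 to 19 (48.2% and 50.9%), and members lie higher in each i∆HSA class, up to 96.7% against 57.8% at scores of 50 or more.

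Seen from the other side, the AP-1 share was higher at higher scores, over a wider range in iBRG1-only than in i∆HSA-only peaks. Among iBRG1-only distal peaks it went from 5.72% at scores 0 to 1 to 18.4% at scores 10 to 19 (15.7 to 21.4%) and 17.2% at 20 to 49. At scores of 50 or more 1 of 6 iBRG1-only peaks was a member. Each list has its own score scale, so the same class can be a different part of each list. Among i∆HSA-only distal peaks the AP-1 share went from 3.97% to 5.78% at scores 10 to 19 (4.52 to 7.37%) and 6.74% at 20 to 49, and at scores of 50 or more 2 of 192 peaks were members, 1.04% (0.286 to 3.72%). Shared peaks of the i∆HSA list with scores of 50 or more were members in 59 of 319 cases, 18.5% (14.6 to 23.1%). The interval of the i∆HSA-only peaks in this class includes their flanking share of 3.16%. Among the 5000 highest-scoring peaks the shared share exceeded the list-only share by 0.997 points in the iBRG1 list (-1.45 to 3.57) and by 11.4 points in the i∆HSA list (8.97 to 13.9).

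**Figure D3:**
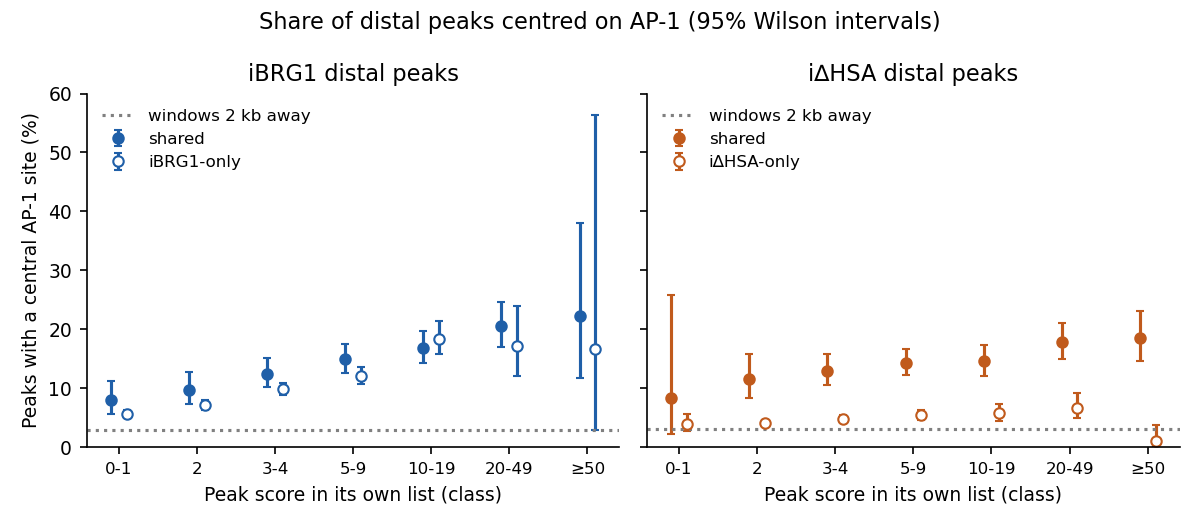
Share of distal peaks with a central AP-1 site in % (y axis) by class of peak score (x axis), for shared peaks (filled circles) and list-only peaks (open circles) of the iBRG1 list (left) and the i∆HSA list (right), with 95% Wilson intervals; the dotted line is the share in windows 2 kb away. From scores 0 to 1 to scores 10 to 19, the iBRG1-only share goes from 5.72% to 18.4% and the i∆HSA-only share from 3.97% to 5.78%. Scores are on each list's own scale.

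Base composition moved with membership. The central window of members had a median GC content of 39.3% in the iBRG1 list and 40.8% in the i∆HSA list, against 37.3% and 35.8% in other distal peaks. Within classes of GC content the order of the lists was the same, but the list-only shares lay closest at 45% or more. Below 30% GC a central AP-1 site was found in 4.31% of 2550 iBRG1-only and 1.95% of 4510 i∆HSA-only peaks, so the i∆HSA list held more peaks of this class. At 30 to 35% GC a central AP-1 site was found in 8.001% of iBRG1-only and 3.85% of i∆HSA-only peaks, at 35 to 40% in 9.47% and 5.28%, at 40 to 45% in 10.4% and 7.15%, and at 45% or more in 9.49% and 7.36%. The excess of sharing in i∆HSA members was 22.998, 30.7, 27.4 and 16.5 points in these 4 classes, and 7.55 points below 30% GC (1.18 to 16.0). For iBRG1 members it was 8.01, 10.4, 12.4 and 12.6 points, and -3.25 points below 30% GC (-8.54 to 4.00), the class in which the direction was not kept.

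Most members held 1 TRE, and members with 2 were shared more often than those with 1. Of iBRG1 members 1684 held 1 site and 24.7% of these were shared, while 152 held 2 sites and 49.3% of these were shared (41.5 to 57.2%). In the i∆HSA list 1177 held 1 site with 37.1% shared, and 115 held 2 sites with 67.8% shared (58.8 to 75.7%). Median scores were 3 and 5 for 1 and 2 sites in the iBRG1 list and 4 and 9 in the i∆HSA list. Sharing by number of sites was not compared at like scores. Members with 3 or more sites numbered 12 and 15, of which 10 and 8 were shared, 83.3% (55.2 to 95.3%) and 53.3% (30.1 to 75.2%).

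Several of the members richest in sites were tandem repeats, in which a unit containing the TRE recurs. Steps between neighbouring sites varied by at most 5 bp in 6 of the 12 iBRG1 members and 8 of the 15 i∆HSA members with 3 or more sites. The richest window held 7 sites at steps of 29 bp in an iBRG1 peak between genes (chr1:236260406-236260711, score 53, partner score 35), and the next held 6 sites at steps of 32 to 34 bp in an i∆HSA peak in an intron of PTPRN2 (chr7:157724790-157726930, score 92, partner score 5). Both central windows are printed in full on the plus strand of GRCh37, with each TRE in capitals, to show the repeat units:
chr1:236260459-236260659: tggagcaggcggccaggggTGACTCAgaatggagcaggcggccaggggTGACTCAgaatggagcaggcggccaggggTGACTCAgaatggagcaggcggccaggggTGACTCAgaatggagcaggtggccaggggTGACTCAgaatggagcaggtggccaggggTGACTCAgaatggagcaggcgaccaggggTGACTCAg
chr7:157725760-157725960: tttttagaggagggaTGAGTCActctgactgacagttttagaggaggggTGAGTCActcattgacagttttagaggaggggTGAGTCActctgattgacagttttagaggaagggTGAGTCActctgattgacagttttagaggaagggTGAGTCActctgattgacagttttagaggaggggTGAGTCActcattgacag

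Reads from such repeats can align to more than 1 unit, so these scores are uncertain. Without all members of 3 or more sites, 26.7% of iBRG1 members and 39.9% of i∆HSA members were shared.

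The bases next to the TRE differed from the genome. In AP-1 sites an A before TGA on either strand, as in the extended form ATGACTCAT, is known to favour binding. The extended form was present in 15.4% of iBRG1 members and 12.5% of i∆HSA members, against 6.12% of genome windows with a TRE. Of the 2034 distinct TREs in iBRG1 members 14.2% had the A on both ends, of the 1457 in i∆HSA members 11.6%, and of those in the genome windows 6.07%. In the i∆HSA list 36.8% of sites with neither A were in shared members (33.1 to 40.7%), 44.99% of those with 1 (41.3 to 48.8%) and 55.0% of those with both (47.5 to 62.3%). For iBRG1 these shares were 29.6%, 30.0% and 29.5%, with no such order. Another neighbour, the GC of the MAF recognition element GCTGAGTCA, was present in 6.93% and 8.42% of members, near the 7.15% of genome windows with a TRE.

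Of 16 other motifs set beside the TRE, TEAD and one E-box stood out in both lists. The TEAD core GGAATG lay in the central window of 16.1% of iBRG1 members and 11.9% of other distal peaks, a difference of 4.27 points (2.59 to 6.08), and in 16.7% of i∆HSA members and 9.54% of others, a difference of 7.14 points (5.17 to 9.29). Of all genome windows, 10.7% held it. The letters of the core can run into a TRE, so matches that share bases with one were also left out, after which the differences were 2.75 points (1.14 to 4.50) and 5.53 points (3.64 to 7.61). The E-box CAGCTG, a site of basic helix-loop-helix factors, was in 8.82% of iBRG1 members and 6.12% of others, a difference of 2.70 points (1.44 to 4.13), and in 8.11% and 4.86% in the i∆HSA list, a difference of 3.25 points (1.85 to 4.88). Of all genome windows, 6.67% held CAGCTG. For CAGCTG the other distal peaks of both lists lay below the genome share, and for TEAD those of the i∆HSA list did. Members of the 2 lists had like shares, so the larger i∆HSA differences go with the lower shares of its other distal peaks. Members also had a higher GC content than other distal peaks, and motif differences were not compared at like GC content.

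The remaining motifs differed by fewer points. The RUNX core TGTGGT was in 12.4% of iBRG1 members and 12.98% of others, and in 12.5% of both groups of the i∆HSA list. The GATA core AGATAA was in 15.3% and 15.8% in the iBRG1 list and in 12.9% and 14.6% in the i∆HSA list, with intervals of the difference that include 0. NR5A, FOX, C/EBP, STAT, SOX, SP/KLF, CTCF, NFI, the cyclic AMP element and the E-box CACGTG lay within 1 point of other distal peaks in both lists. NF-κB sites were in 1.84% of i∆HSA members and 1.14% of others, a difference of 0.695 points (0.0735 to 1.59), and in 1.24% and 1.13% in the iBRG1 list. The ETS site CCGGAA was rarer in iBRG1 members, 0.595% against 1.25% (difference -0.651 points, -0.966 to -0.159), and not in i∆HSA members, 1.07% against 1.12%. Matches are exact letters on both strands, and no match says only that these letters were not in the window.

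**Figure D4:**
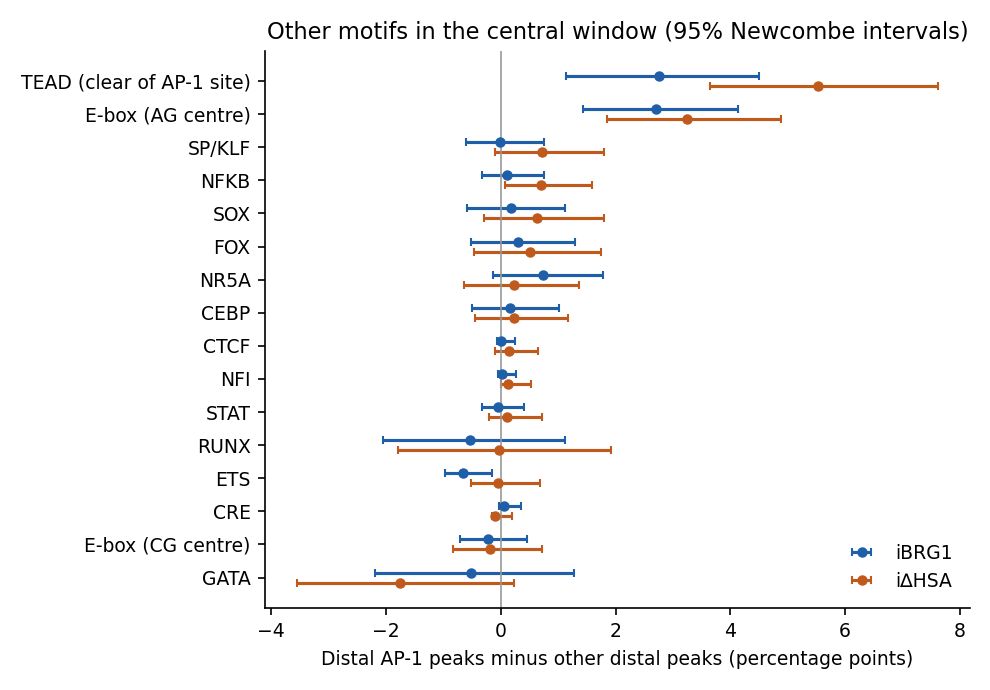
Difference between distal AP-1 peaks and other distal peaks in the share of central windows with each of 16 motifs, in percentage points (x axis), for the iBRG1 list (blue) and the i∆HSA list (orange), with 95% Newcombe intervals; TEAD is counted without matches that share bases with an AP-1 site. TEAD (2.75 and 5.53 points) and the E-box with an AG centre (2.70 and 3.25 points) lie above 0 in both lists.

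Among the 4 combinations of AP-1 and TEAD sites, members with a separate TEAD core were the most often shared. Members whose only TEAD core shares bases with a TRE were counted as without a separate core. For iBRG1 34.1% of 270 members with a separate core were shared (28.7 to 39.9%), against 25.9% of members without one. The shares were 18.6% of distal TEAD peaks without an AP-1 site and 16.98% of peaks with neither. In the i∆HSA list the shares were 49.7% of 197 members (42.8 to 56.7%), 38.3%, 20.0% and 15.8%. The intervals of members with and without a separate TEAD core did not overlap in either list. Median scores of the 4 combinations ran the same way, 4, 3, 2 and 2 in the iBRG1 list and 6, 5, 4 and 4 in the i∆HSA list. Sharing of these combinations was not compared at like scores.

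The commonest single arrangement, with 34 and 25 pairs, was an overlap, in which the last 2 bases of GGAATG are the first 2 of the TRE. Since each member has a TRE by the rule, this overlap needs only GGAA besides. Any other spacing needs all letters of GGAATG, so the rank of the overlap was favoured in advance and shows no preferred spacing. In the overlap GGAA, also the core of ETS sites, stands directly before the element. This held for 35 of 2034 TREs in iBRG1 members, 1.72% (1.24 to 2.38%), and 25 of 1457 in i∆HSA members, 1.72% (1.16 to 2.52%), against 0.808% of TREs in the genome windows. After GGAA the i∆HSA sites read TGAGTCA in 72.0% (52.4 to 85.7%), the iBRG1 sites in 34.3% (20.8 to 50.8%) and those of the genome in 61.0%. Of the peaks with such a site, 7 of 35 were shared in the iBRG1 list and 13 of 25 in the i∆HSA list. Examples with high scores are shown, with GGAA and the TRE in capitals. The first was found in both lists with a central site, at scores of 40 in the iBRG1 list and 91 in the i∆HSA list:
RAB8B intron, chr15:63548976-63549016, minus strand: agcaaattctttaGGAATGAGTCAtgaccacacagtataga
intron of the non-coding LINC01013 near CCN2, chr6:132317252-132317292, plus strand: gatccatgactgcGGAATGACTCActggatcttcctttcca
SAMD4A intron, chr14:55144224-55144264, minus strand: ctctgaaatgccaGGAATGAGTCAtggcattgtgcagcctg
EIF2AK3 intron, chr2:88899836-88899876, plus strand: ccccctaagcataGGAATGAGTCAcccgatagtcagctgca

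Where a member was shared, the peak of the other construct nearly always covered the same AP-1 site, but often with its midpoint elsewhere. The partner covered the TRE for 477 of 501 shared iBRG1 members (95.2%) and 504 of 523 shared i∆HSA members (96.4%). The partner was itself a member, through this TRE or another, for 151 in each list (30.1% and 28.9%). Midpoints of partners were a median of 261 and 273 bp apart. Of single sites, 136 of the 3355 distinct TREs were central in both lists, 6.69% of the iBRG1 sites and 9.33% of the i∆HSA sites. The count of sites central in both thus understates the sites covered in both.

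Scores of the pairs were loosely related. Over the 501 shared iBRG1 members the rank correlation of the scores was 0.482, a description across regions that share a list, and over the 3018 other shared distal peaks it was 0.423. Shared members had a median score of 7 in the iBRG1 list and 10 in the i∆HSA list, and list-only members a median of 3 in both.

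**Figure D5:**
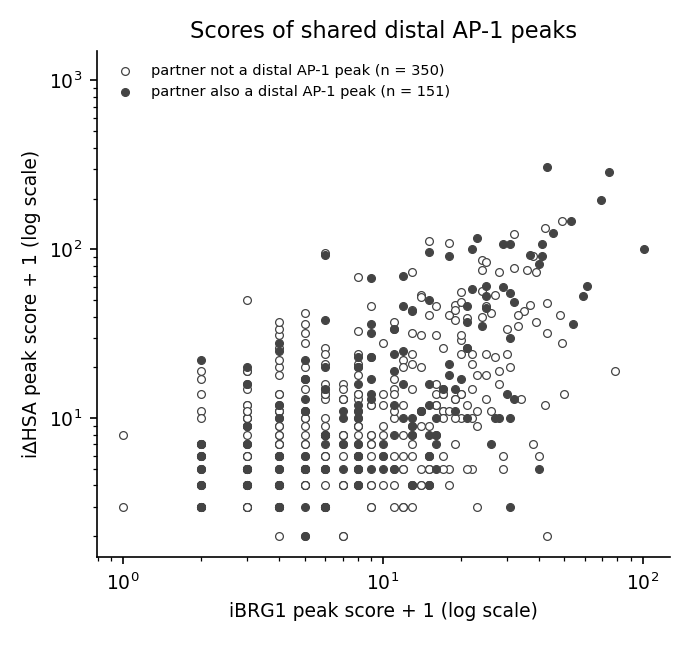
Score plus 1 of each of the 501 shared iBRG1 members (x axis, log scale) and of its partner in the i∆HSA list (y axis, log scale), with filled circles where the partner is itself a distal AP-1 peak (151 pairs) and open circles where it is not. Scores are on the lists' own scales, and their rank correlation is 0.482.

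Of the 10 highest-scoring shared members, 8 of the iBRG1 list and 9 of the i∆HSA list lay in introns, and the others lay between genes. PFKP encodes a phosphofructokinase of glycolysis, and its member (chr10:3137198-3138322) had a score of 100, rank 2 in the iBRG1 list, with a partner score of 100 in the i∆HSA list. The member in MAGI3, a scaffold protein of cell junctions (chr1:113998941-114000617), scored 68 in the iBRG1 list and 194 in the i∆HSA list. The member in OSER1 (chr20:42832121-42833599) scored 52 and 147, and that in ACACA, the carboxylase that makes malonyl-CoA for fatty acid synthesis, scored 60 in both. These loci scored above the upper quartile of members in both lists, but equal scores are not equal ranks. A score of 60 had rank 24 in the iBRG1 list, while a score of 57 had rank 461 in the i∆HSA list.

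Other pairs had unlike scores, each on its own list's scale. The member in DYM (chr18:46847335-46849313) scored 77 in the iBRG1 list, where 6 peaks scored higher, and 18 in the i∆HSA list. The member in TNRC6A, a component of microRNA silencing (chr16:24657007-24658390), scored 306 in the i∆HSA list and 42 in the iBRG1 list. By rank these scores stood at 13 and 93. The 10 highest-scoring shared iBRG1 members scored 48 to 100 with partner scores of 13 to 286, and the 10 highest-scoring shared i∆HSA members scored 110 to 306 with partner scores of 19 to 73. The lowest partner scores, 13 in the i∆HSA list and 19 in the iBRG1 list, lay above the upper quartile of the members there, 11 and 8.

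List-only members reached lower ranks in the i∆HSA list. The highest iBRG1-only members were in an intron of HOATZ (score 61, rank 22), between genes near DPYD (43, rank 88), in the antisense transcript ELOVL2-AS1 (42, rank 93), in PIK3CA, the catalytic subunit of phosphoinositide 3-kinase (41, rank 102), and in PPP1R12B, a myosin phosphatase subunit (31, rank 220). The highest i∆HSA-only members were in SMOX, spermine oxidase (57, rank 461), CBL, a ubiquitin ligase for receptor kinases (50, rank 558), MAP2 and the tyrosine kinase gene ABL1 (49 each, rank 571), and a non-coding transcript (47, rank 606). Ranks count all peaks of the list, from 1 at the highest score.

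Most members lay in introns, as did most other distal peaks. Midpoints fell in introns for 64.6% of iBRG1 members (62.4 to 66.8%) and 62.3% of others, and for 64.4% of i∆HSA members (61.8 to 67.0%) and 59.7% of others. Between genes lay 32.3% and 32.7% of members, and in exons 3.14% and 2.91%. The median distance to the nearest start was 12.9 kb for iBRG1 members and 12.4 kb for i∆HSA members, against 13.7 and 12.3 kb for other distal peaks. Over 50 kb from any start lay 10.8% of iBRG1 members (9.44 to 12.3%) and 14.3% of other distal peaks (13.8 to 14.8%), and in the i∆HSA list 12.7% (11 to 14.6%) and 12.2%. Members were no wider than the rest, at a median of 1183.5 and 1118 bp against 1219 and 1195 bp.

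Genes with members were spread thinly. A protein-coding gene was counted when a member lay in it or within 50 kb, which held for 10.3% of 20136 genes in the iBRG1 list and 8.38% in the i∆HSA list. PARD3, a cell polarity gene of 706 kb, had 3 members in each list. LTBP1, which anchors latent TGF-β in the matrix, had 5 in the iBRG1 list, none of them shared, with scores of 1 to 17. It had 1 in the i∆HSA list, which was shared. ME3, a mitochondrial malic enzyme, had 5 in the iBRG1 list with scores of 3 to 21 and 0 in the i∆HSA list. Of these 5 members, 2 overlapped an i∆HSA peak. The neighbours IL6R and SHE had the same 3 and 2 members, CTNNA3 had 4 and 1, HIVEP3 and ADK 3 and 1 each, and the neighbours MYOF and CEP55 2 and 2. The last 4 genes were taken by position from 41 genes with 4 members in all. Long genes offer more room, and no gene had more than 6 members in all.

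Genes of AP-1 biology were counted against these backgrounds. Of 14 genes for AP-1 subunits, 0 had an iBRG1 member and 1 an i∆HSA member, FOSL1, with a peak of score 12 at 15.4 kb from the gene that was not shared. Of 16 classic AP-1 target genes 2 had an iBRG1 member, 12.5%, and 5 an i∆HSA member, 31.25%. The matrix protease genes MMP3 and MMP13 were counted in both lists but through different peaks. The MMP3 peak of i∆HSA scored 33 and was shared (partner score 5), and its iBRG1 member scored 11 and lay in an intron of MMP12. PLAU, the urokinase gene, had an i∆HSA member of score 8 with a partner of score 4, and CXCL8, interleukin 8, one of score 2 that was not shared. All these lists are short, and their counts stand beside backgrounds of 10.3% and 8.38%.

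The other lists were set beside the same backgrounds of 10.3% and 8.38%. Of 16 TEAD and YAP genes 2 had an iBRG1 member, 12.5%, and 4 an i∆HSA member, 25%. CCN2, a YAP target, had the iBRG1 member with GGAA before the TRE printed here (score 29, partner score 33, 44.8 kb from the gene). TEAD1 had an intronic i∆HSA member of score 22 with a partner of score 20, and YAP1 one of score 13 with a partner of score 7. The remaining members of this list were not shared. They were an iBRG1 member of score 0 at ANKRD1 and i∆HSA members of score 16 at TEAD3 and 3 at AXL. Of 25 extracellular matrix genes 5 and 3 had a member, 20% and 12%. Their median length was 90.3 kb, against 27.2 kb for all protein-coding genes, and long genes offer more room. LAMC1, laminin gamma 1, had an iBRG1 member of score 3 and a separate i∆HSA member of score 17 with an iBRG1 partner of score 17, and COL5A2 an iBRG1-only member of score 19. Of 15 senescence and cell cycle arrest genes 3 and 3 had a member, 20% in each list, with CDKN2A and CDKN2B counted through the same peak in CDKN2B-AS1 (score 4, partner score 10). CXCL8 was counted here as well as among the AP-1 targets. Of 9 genes chosen from those assayed in the study 1 had members in each list (11.1%), MYOF, a membrane repair protein. Its intronic member scored 24 in the iBRG1 list (chr10:95218310-95219066) and 52 in the i∆HSA list (chr10:95218293-95219332), and a further peak in each list, of scores 7 and 3, was not shared.

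Peaks at the limits of the rule were like members just inside it. Distal peaks whose nearest TRE was centred 78 to 97 bp from the midpoint were shared in 21.9% of 351 cases in the iBRG1 list and 41.5% of 248 in the i∆HSA list, and those at 98 to 117 bp, outside the window, in 23.6% of 313 and 42.3% of 281. Peaks with a central TRE and 1001 to 2000 bp from a start were shared in 31.2% and 30.8% of cases, and those 1 to 1000 bp away in 27.9% and 32.8%.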

How the data were processed

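V5 CUT&RUN was performed on 2 samples each of SW-13 cells induced to express iBRG1 or i∆HSA, grouped by sample title. Per the study's methods and processing notes, the authors used Cutadapt, Bowtie2, Picard, SAMtools and MACS2 2.2 on hg19, discarded peaks also called in negative controls and set a minimum score of 5. Both lists also hold lower scores, and the paper reports fewer peaks than their 24212 and 25371. The deposited score is a whole number per peak on an unstated scale. Whether replicates were pooled is not given in the sources used here. Controls were not analysed here.

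Distances were taken from the peak edge to GENCODE release 44 transcript starts mapped to GRCh37. Motifs were searched in GRCh37 with Python 3.11.15, numpy 2.4.6, pandas 2.3.3, scipy 1.17.1 and pysam 0.24.0, and code was tested on simulated data. Depth is unknown and no p-value was computed, since each construct has 1 list. Named peaks were the 10 highest-scoring shared and 5 highest-scoring list-only members per list, and named genes the 10 with most members plus 6 gene lists. Members, motifs and lists were chosen with earlier results of these data known. A gene of these lists is not reported here.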

Additional observations from a re-analysis of the deposited data

How the results depend on the processing

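No estimate changed sign under the alternatives run, and 78 of 146 recomputed values stayed within the main 95% interval. With a score of at least 5, AP-1 shares were 15.1% (iBRG1) and 8.94% (i∆HSA), 6.20 points apart (7.78 for list-only peaks), the centre to flank ratios 5.34 and 3.01, median scores 9 and 11, shared shares of members 37.1% and 42.9%, and, for iBRG1, the shared minus list-only difference 2.42 and the members' excess of sharing 4.19 points, with a TEAD difference of 10.5 for i∆HSA. Among the 5000 highest scores, the same values were 16.0% and 11.01%, 4.99 (8.20), 5.84 and 3.66, 11 and 19, 31.1% and 53.0%, and, for iBRG1, 0.997 (-1.45 to 3.57) and 1.55 points (-2.25 to 5.55), intervals that include 0, with 11.4 points between shared and list-only peaks and 11.6 for TEAD in i∆HSA. A score of at least 5 was reached by 25.7% of iBRG1 and 38.3% of i∆HSA distal peaks, so that cut takes unlike parts of the lists. Weighted to the members' score classes, an alternative added after seeing the data, the excess of sharing was 2.90 and 18.6 points.

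A window of 50 bp to either side of the midpoint gave AP-1 shares of 4.85% and 3.31%, 1.54 points apart (1.69 for list-only peaks), shared minus list-only differences of 3.79 and 4.74, and, for iBRG1, a ratio of 3.46, a TEAD difference of 2.45, an excess of sharing of 12.2 points and a shared share of 29.7%. One of 200 bp to either side gave 17.2% and 12.1%, 5.02 (6.42), 9.58 and 17.6, and an iBRG1 ratio of 2.86. Any central base gave 13.9% and 10.3%, 3.59 (4.605), ratios of 2.29 and 1.68, and, for i∆HSA, differences of 12.5 (shared minus list-only) and 19.7 (sharing) and a shared share of 35.4%. Peaks of at least 25% GC gave 6.94% and a ratio of 2.25 for i∆HSA. Reciprocal overlap of 50% gave shared shares of 18.1% and 26.1% and an excess of 7.84 and 16.4 points. Midpoints within 250 bp gave 13.1% and 18.5%, 7.26 and 12.9, shared minus list-only differences of 10.2 and 13.1, and 3.12 points between list-only peaks. The cause of these shifts was not tested, beyond the length searched and the peaks left out. Comparisons involving list-only peaks were added after seeing the data.

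No paired analysis was possible because the lists carry no values per replicate, and for the same reason no replicate was left out. Leaving out masked repeats was not run, since the genome used carries no repeat mask. Depth is unknown and limits what list-only peaks show.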
